A study of Homo sapiens with 6 samples.

Results

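The intraflagellar transport, BBSome and transition zone genes are 54 human genes that build and maintain the cilium. They were taken as a list by symbol, and the list was chosen with earlier results of these data known. All 54 matched an Ensembl row of the deposited expression table, which holds 40396 genes. They comprised 13 genes of the IFT-B complex, 6 of the IFT-A complex, 6 motor genes, 10 genes of the BBSome and its assembly factors, 14 transition zone genes, the ciliary GTPase gene ARL3 with the phosphatase gene INPP5E, and 3 polycystin genes.

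RNA was sequenced from the human embryonic stem cell line H1 after 3 days of definitive endoderm (DE) differentiation. The medium of every well held activin A at 50 ng/ml, with the WNT activator CHIR99021 at 2.5 µM for the first 24 h only. The 3 control libraries came from cells given the DMSO vehicle, and the 3 SAR libraries from cells given 0.5 µM saracatinib (SAR), an inhibitor of SRC-family kinases, over the whole 3 days. At this dose the paper reported less phosphorylation of focal adhesion kinase at some of the sites probed in western blots, and no noticeable change at another. It reported no effective inhibition of SRC phosphorylation. H1 is a single cell line, and the labels do not say that the replicates were separate cultures, so p-values measure the spread between these libraries, which may be technical. Expression is given as FPKM, fragment counts per unit of gene length and of sequencing depth, and the comparison asks which of these ciliary genes differed in level when SAR was present during differentiation.

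A cilium is a microtubule-based projection that grows from a centriole docked at the cell surface. Trains of IFT-B and IFT-A particles carry building blocks and receptors along it: kinesin-2 moves trains towards the tip, and dynein-2 brings them back. The BBSome rides on these trains and sorts membrane proteins, while the transition zone at the base is a gate made of the MKS, NPHP and CEP290 modules. Primary cilia, which do not beat and serve signalling such as Hedgehog signalling, and motile cilia, which carry dynein arms on the axoneme, both need this machinery. Cilia of the embryonic node also need it to set left-right asymmetry, and loss of its members underlies Bardet-Biedl, Joubert and Meckel syndromes and polycystic kidney disease.

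The RNA of these genes was higher with SAR for 25 of the 53 members that could be tested, lower for 2, and not past the test for 26. The differences were small: apart from PKD1L1, the mean SAR level of the other 24 higher members was between 1.18 and 1.97 times the mean control level, with a median of 1.31 times. Members of the transport particles made up 12 of the 25, with IFT46 and CLUAP1 at their head, and the largest differences elsewhere were those of TMEM231 at the transition zone and of BBS12 and BBS5 around the BBSome. IFT20 and the kinesin-2 subunit gene KIFAP3 were the 2 members that fell. A member was called at a Benjamini-Hochberg adjusted p under 0.05 in limma, fitted across the 16371 genes whose mean reached 0.5 FPKM. Values were analysed as log2(FPKM + 0.1), so fold changes of weakly expressed genes come out too small.

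Against this count, 23.7% of all genes tested were called higher and 9.55% lower, beside 47.2% and 3.77% of the members. With a log2 fold change above 1 also required, PKD1L1 was the only member called, and 3.41% of all genes tested were called higher. The median log2 fold change was 0.24 over the members and 0.12 over all genes tested, and 43 of the 53 members had a positive value and 10 a negative value. All 3 SAR libraries lay above all 3 control libraries for 30 members, where 35.5% of all genes tested had that pattern, and below them for 3 members (IFT20, KIFAP3 and TTC21B), where 15.2% of all genes tested did. No called member had overlapping groups.

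Because the typical gene was slightly higher with SAR, part of each count depends on how libraries were scaled. When each library was rescaled by the median ratio, which moved the median of all genes tested from 0.12 to 0.0011, 13.8% of all genes were called higher and 15.5% lower. Under that scaling 16 members were called higher and 2 lower, all of them also called without rescaling, and the members' median log2 fold change was 0.12. Calls lost in this way were those of IFT22, IFT52, IFT88, WDR19, DYNC2LI1, TTC8, TMEM67, TCTN3 and ARL3. In the plot of fold changes by complex, this shift is drawn as the dashed line.

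**Figure D1:**
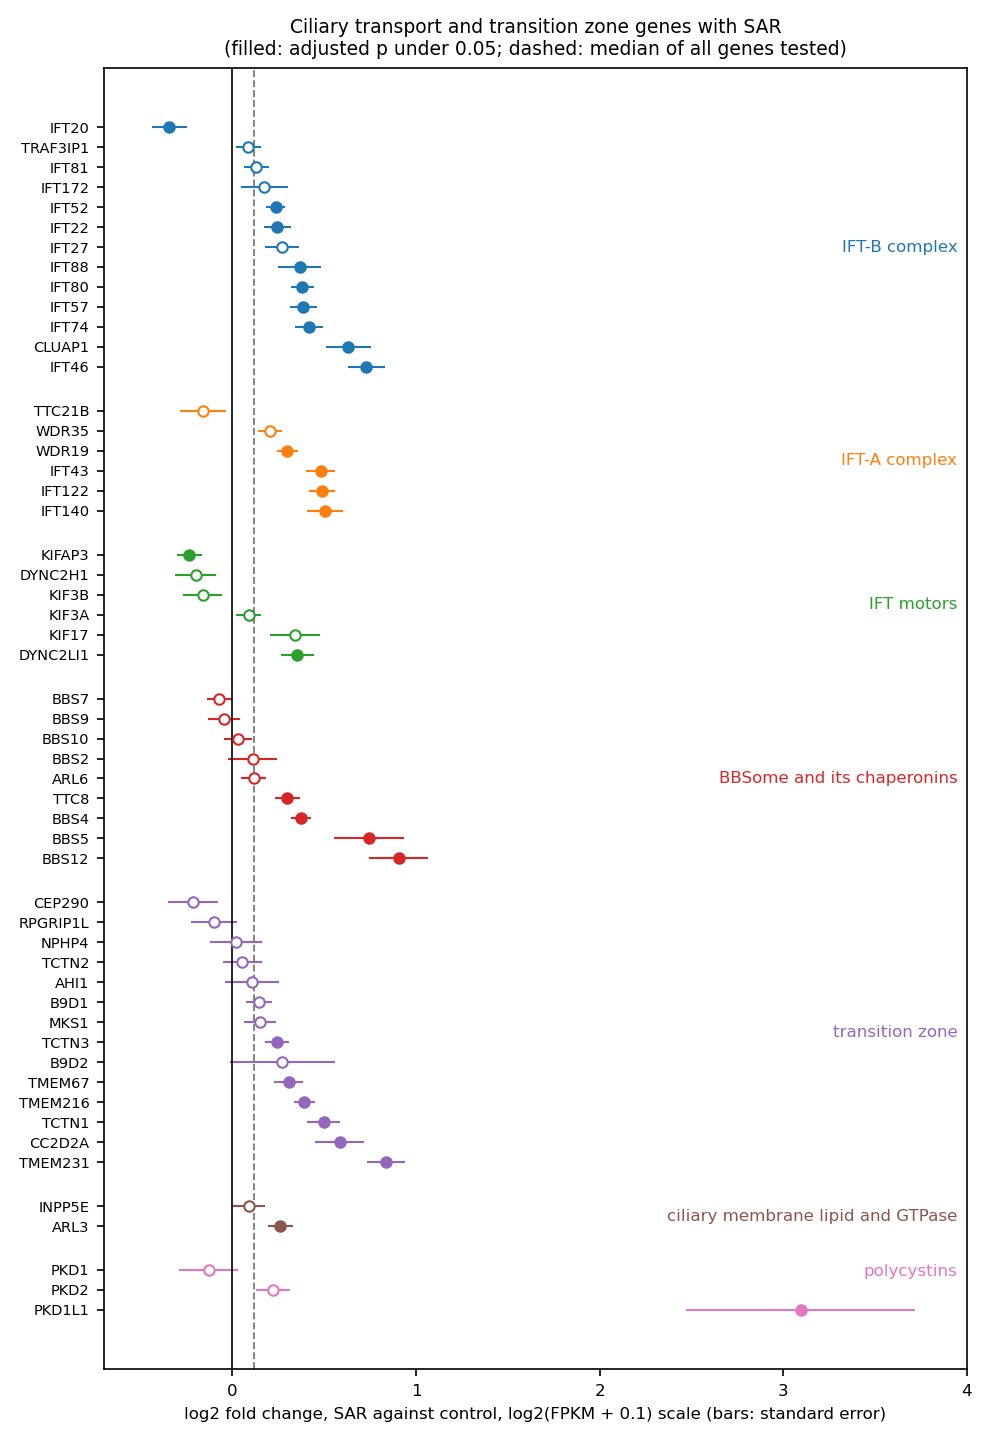
Log2 fold change of the 53 tested members, SAR against control, on the log2(FPKM + 0.1) scale, grouped by complex. Points are estimates over 3 libraries per group, bars are standard errors, filled points passed an adjusted p of 0.05 in limma, and the dashed line marks the median of all genes tested, 0.12. Most IFT-A and IFT-B points lie to the right of the dashed line, the motor genes lie on either side of 0, and PKD1L1 stands alone at 3.10.

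Recovered read totals were between 16681280 and 24419937 per library. Control replicate 1 had 33169 genes above 0, while the other 5 libraries had 29506 to 30109. Without control replicate 1, 20 members were higher and 2 lower. Among all genes, 3452 were then higher and 1311 lower, beside 3885 and 1563 with all libraries. The labelled cell type could be checked against its markers: all 9 DE markers were detected in both groups, SOX17, FOXA2 and HHEX rose with SAR, and GATA4, GATA6, EOMES, GSC, CER1 and CXCR4 fell. Of 5 neural ectoderm markers, PAX6, SOX1 and ZIC1 had means under 0.1 FPKM in either group, while OTX2 (154 FPKM in control and 141 with SAR) and NES (63.4 and 74.0) were abundant and did not pass. Among 6 mesoderm markers, TBXT (brachyury) rose by 1.69 on the log2 scale (SE 0.13, adjusted p = 0.000574) and TBX6 by 0.82, MIXL1 fell, at -1.35, and so did KDR, at -0.22, and MESP1 and HAND1 were under the minimum. Of 5 pluripotency markers, NANOG fell (-1.30), SOX2 rose (0.88, adjusted p = 0.015), and POU5F1, ZFP42 and DPPA4 had positive values and did not pass. In whole cultures, more cells of a type and more RNA per cell cannot be told apart, and this holds for every difference below.

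Stretches of the start regions are shown first for some members that match letters bound by RFX transcription factors, known regulators of ciliary genes. Of the members shown, ARL6 and B9D2 did not pass the test and the rest were called higher. RefSeq promoter windows (GRCh38.p14, 250 bases before to 50 after the start of transcription) were matched for 48 of the 54 members, and IFT22, WDR35, BBS9, TMEM67, TCTN2 and PKD1L1 had no entry. An X-box was searched as GTNNCC, 3 bases of any kind, then GNAAC, and the shorter RFX core motif as GTTGCC, each on both strands. Read on the other strand, the X-box pattern is GTTNC, 3 bases, then GGNNAC, and TMEM231, IFT57 and B9D1 match in that orientation. The 2 searches overlap, since an X-box can begin with the core. In the lines below, the matched letters are in capitals and 8 bases flank them on each side, written 5′ to 3′ on the strand of the gene. A match describes these letters and was not tested for binding in these cells.
TMEM231 (X-box, chr16:75556271-75556300, minus strand): agccgtcgGTTGCCGTGGAGACcgaggcga
IFT57 (X-box, chr3:108222433-108222462, minus strand): ggagtctaGTTTCCCTGGTGACggattgtc
ARL6 (X-box, chr3:97764726-97764755, plus strand): aagctcctGTTGCCAAGGGAACggtgcctg
B9D2 (X-box, chr19:41364136-41364165, minus strand): agcctgctGTTGCCCCAGCAACaaccacgg
IFT46 (RFX core, chr11:118566114-118566135, minus strand): tcagccgcGTTGCCacccatag
CLUAP1 (RFX core, chr16:3500974-3500995, plus strand): gtccattgGTTGCCatagagat
IFT122 (RFX core, chr3:129440204-129440225, plus strand): gcatgtacGTTGCCaggggtaa
BBS5 (RFX core, chr2:169479472-169479493, plus strand): ggcggcccGTTGCCttggagcc

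The RFX core motif was present in the windows of 20 of the 48 members (41.7%), and in 16.8% of the 10744 tested genes with a window (14.6% of all genes with one). An X-box lay in the windows of 6 members (12.5%): TMEM231, IFT57, ARL6, AHI1, B9D1 and B9D2, while 3.42% of tested and 2.76% of all genes had it. The forkhead motif TGTTTAC, searched on both strands because FOXJ1 is a forkhead factor of ciliated cells, was in 2 members (CLUAP1 and IFT20, 4.17%) and in 3.55% of tested and 4.19% of all genes. Of the 6 members with an X-box, TMEM231 and IFT57 were called higher with SAR, and ARL6, AHI1, B9D1 and B9D2 did not pass. The core motif was in 11 of 22 members called higher (50.0%) and in 9 of 26 others (34.6%), counts that were not tested against each other. Members without a call that had it included IFT81, IFT27 and DYNC2H1. Members called higher with neither it nor an X-box included BBS12, IFT80 and BBS4. Genes of the motile axoneme had the core motif in 16 of 28 cases (57.1%).

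**Figure D2:**
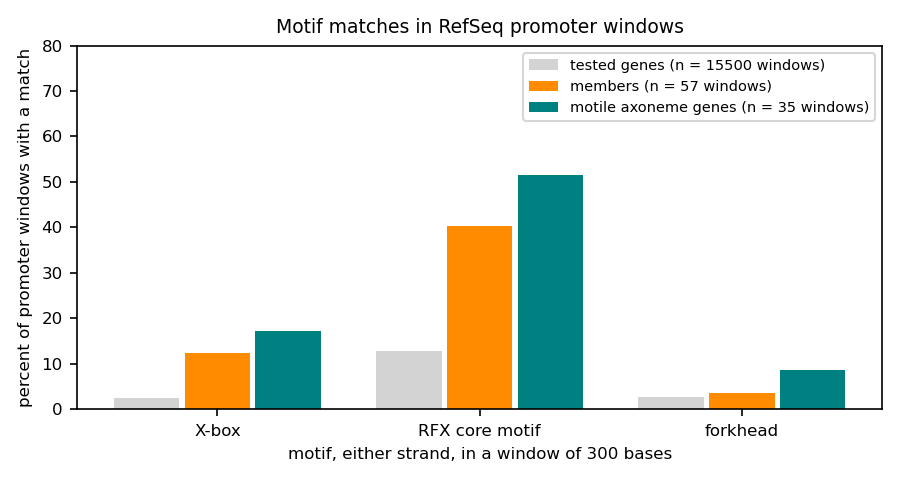
Percent of RefSeq promoter windows of 300 bases with a match to each of 3 motifs, for windows of all tested genes (grey), of the members (orange) and of motile axoneme genes (teal). Genes can have several windows, and here each window counts once: the RFX core motif was in 40.4% of member windows and in 12.7% of those of tested genes.

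IFT-B is the larger transport particle, needed for movement towards the tip and for tubulin delivery. Of its 13 genes, 8 were higher with SAR, 1 was lower and 4 did not pass, with a median log2 fold change of 0.27. IFT46 (ENSG00000118096), a subunit that takes part in loading axonemal cargo, had FPKM of 2.60, 2.20 and 2.46 in the control libraries and of 3.97, 3.75 and 4.53 with SAR. Every SAR library was above the highest control, and the log2 fold change was 0.73 (SE 0.10, adjusted p = 0.0032). CLUAP1 (ENSG00000103351), the subunit also known as IFT38, read 1.72, 2.10 and 2.02 FPKM in control and 3.42, 3.14 and 2.66 with SAR, a log2 fold change of 0.63 (SE 0.12, adjusted p = 0.010). The groups of CLUAP1 did not overlap, and the lowest SAR library was replicate 3.

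IFT74, which pairs with IFT81 to bind tubulin, was 3.48, 3.29 and 3.13 FPKM in control and 4.46, 4.17 and 4.69 with SAR (log2 fold change 0.42, SE 0.08, adjusted p = 0.0083). Its partner IFT81 was 5.64 ± 0.30 FPKM in control and 6.18 ± 0.23 with SAR (SD, n = 3 each), with overlapping groups and no call (log2 fold change 0.13, adjusted p = 0.17). The 2 subunits of this pair were called differently, and the difference between them was not tested. IFT57, a peripheral subunit, was 10.7, 10.2 and 9.67 FPKM in control and 14.4, 12.4 and 13.2 with SAR (log2 fold change 0.39, adjusted p = 0.0096). IFT80 rose by a similar amount, from 5.74 ± 0.13 to 7.51 ± 0.39 FPKM (log2 fold change 0.38, adjusted p = 0.0058). By the GENCODE 29 annotation, 27.2% of its exon bases are shared with the same-strand gene AC079594.2, so reads there could belong to either.

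Smaller increases were measured for IFT88, IFT22 and IFT52. IFT88, the subunit altered in the mouse model of polycystic kidney disease, was 2.32, 2.53 and 2.42 FPKM in control and 3.33, 3.52 and 2.65 with SAR. Its adjusted p of 0.0499 was at the threshold and rose above it without any 1 of 5 libraries, SAR replicate 3 being the exception. The core subunit gene IFT52 had the highest level of all members, 22.6 ± 0.44 FPKM in control and 26.6 ± 0.95 with SAR, a log2 fold change of 0.23 (SE 0.05, adjusted p = 0.015). IFT22, a small GTPase of the particle, went from 5.17 ± 0.31 to 6.14 ± 0.35 FPKM with a log2 fold change of 0.24 (adjusted p = 0.044).

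IFT20 (ENSG00000109083), the subunit that also resides at the Golgi and sends membrane proteins towards the cilium, went the other way. Its FPKM was 10.6, 12.2 and 10.8 in control and 8.58, 8.06 and 9.87 with SAR, so that every SAR library lay below every control. The log2 fold change was -0.34 (SE 0.09, adjusted p = 0.031), and by GENCODE 29 11.2% of its exon bases lie opposite the gene TMEM97. The call was lost on leaving out control replicate 2, control replicate 3, SAR replicate 1 or SAR replicate 2. The 4 IFT-B genes that did not pass were IFT27 (0.27, adjusted p = 0.060), which links the particle to BBSome exit, IFT172 (0.17), IFT81 (0.13) and TRAF3IP1 (0.09). Of these, all SAR libraries of IFT27 were above control, and IFT172 and TRAF3IP1 overlapped.

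IFT-A is the particle needed for the return of trains to the base, and it lets G-protein-coupled receptors into the cilium. Of its 6 genes, 4 were higher, none was lower, and the median log2 fold change was 0.39. IFT122 (ENSG00000163913), of the particle's core, was 2.88, 2.83 and 2.75 FPKM in control and 3.89, 3.90 and 4.18 with SAR, and the spread within each group was small beside the gap between them (log2 fold change 0.49, SE 0.07, adjusted p = 0.0034). IFT140 had a control level of 4.94 ± 0.09 FPKM and SAR values of 6.32, 6.77 and 8.18 (log2 fold change 0.50, adjusted p = 0.011). IFT43, a small subunit at the particle's edge, moved from 5.95 ± 0.09 to 8.36 ± 0.77 FPKM (log2 fold change 0.48, adjusted p = 0.0053). Here too the SAR libraries spread more widely than the controls and did not reach them.

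WDR19, or IFT144, was 6.16, 6.42 and 5.98 FPKM in control and 7.73, 7.43 and 7.72 with SAR (log2 fold change 0.30, adjusted p = 0.00995). WDR35, or IFT121, had all SAR libraries above control but missed the threshold (log2 fold change 0.20, adjusted p = 0.055). TTC21B, or IFT139, was the exception in direction: 1.14 ± 0.05 FPKM in control and 1.01 ± 0.06 with SAR, with a log2 fold change of -0.16 (adjusted p = 0.35). Its FPKM is lowered against other genes by a feature length of 33812 bases behind the deposited values, where GENCODE 29 exons cover 7538 bases. This length cancels between groups.

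Among the motors the direction was mixed. Of 6 motor genes, 1 was higher, 1 lower and 4 did not pass, with a median log2 fold change of -0.04 and 3 values on each side of 0. DYNC2LI1, the light intermediate chain of dynein-2, was 5.03, 5.10 and 5.31 FPKM in control and 7.44, 5.97 and 6.48 with SAR (log2 fold change 0.35, SE 0.09, adjusted p = 0.024), and SAR replicate 1 was the highest. DYNC2H1, the heavy chain that makes the force, was 3.64 ± 0.31 FPKM in control and 3.17 ± 0.39 with SAR, with overlapping groups (log2 fold change -0.20, adjusted p = 0.20).

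Kinesin-2 is built from KIF3A, KIF3B and the adaptor KIFAP3. KIFAP3 (ENSG00000075945) was 4.83, 5.43 and 5.20 FPKM in control and 4.40, 4.21 and 4.48 with SAR, and its highest SAR library lay just under the lowest control. The log2 fold change was -0.24 (SE 0.07, adjusted p = 0.040), and the call was lost without control replicate 2 or 3, or without SAR replicate 1 or 2. KIF3A, at 0.09 (adjusted p = 0.35), and KIF3B, at -0.16 (adjusted p = 0.27), did not pass and overlapped between groups. Under median-ratio rescaling KIF3A turned to -0.03, still without a call. KIF17, the homodimeric kinesin-2, had 1.47 ± 0.10 FPKM in control and 1.90 ± 0.32 with SAR and did not pass (log2 fold change 0.34, adjusted p = 0.095).

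**Figure D3:**
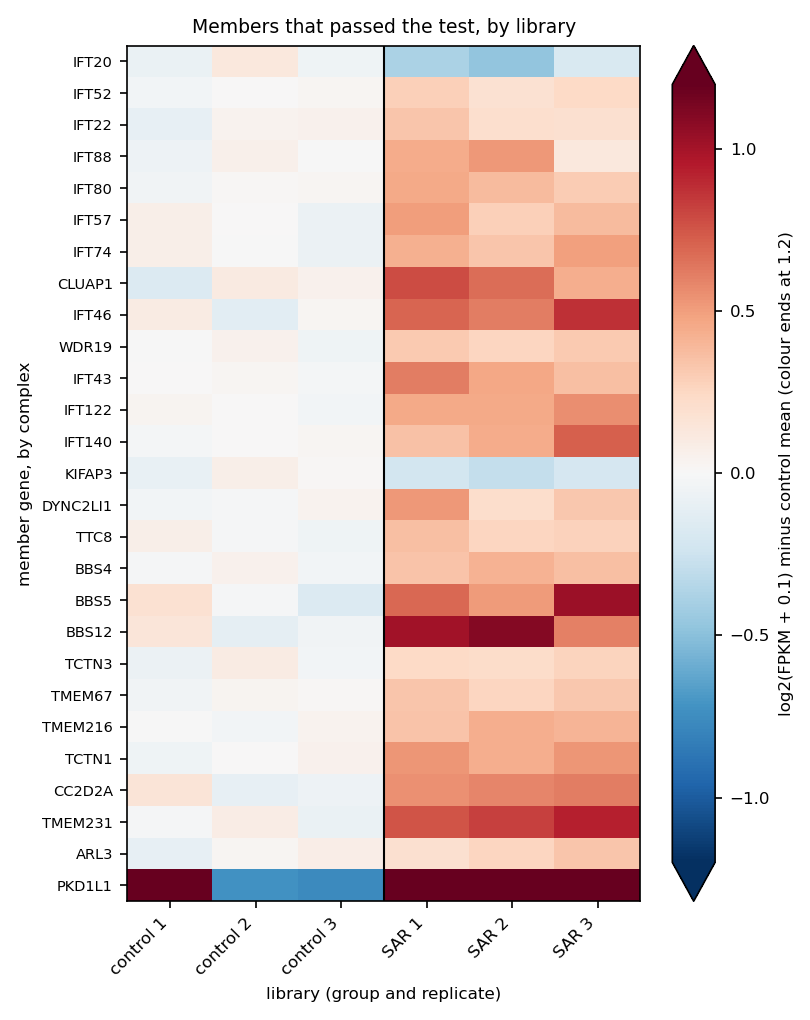
Levels of the 27 members that passed the test in each of the 6 libraries, as log2(FPKM + 0.1) minus the mean of the 3 control libraries, with red above and blue below that mean and colours ending at 1.2. The 3 SAR columns are red for 25 genes and blue for IFT20 and KIFAP3. PKD1L1 passes the end of the scale in control replicate 1 as well as in the SAR libraries.

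Around the BBSome, 9 of 10 genes were tested, of which 4 were higher, none was lower and 5 did not pass, with a median log2 fold change of 0.12, the same as over all genes tested. BBS12 (ENSG00000181004), a chaperonin-like factor that assembles the BBSome and is no part of it, was 1.21, 1.00 and 1.05 FPKM in control and 2.29, 2.44 and 1.70 with SAR. The log2 fold change was 0.90 (SE 0.16, adjusted p = 0.0071), and without SAR replicate 3, the lowest of the SAR libraries, it was 1.06. BBS5, a coat subunit that binds membrane phosphoinositides, was 0.773, 0.664 and 0.585 FPKM in control and 1.14, 1.00 and 1.47 with SAR (log2 fold change 0.74, SE 0.19, adjusted p = 0.026).

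The BBS5 value has limits: 21.9% of its exon bases are shared with the same-strand AC093899.2, and the call was lost without control replicate 2 or 3, or SAR replicate 1 or 3. BBS4 had the most even pair of groups, 7.29, 7.63 and 7.19 FPKM in control and 9.36, 9.87 and 9.48 with SAR (log2 fold change 0.37, SE 0.06, adjusted p = 0.0043). It is a subunit of the coat, and so is TTC8, also known as BBS8, which was 3.88 ± 0.17 FPKM in control and 4.79 ± 0.17 with SAR (log2 fold change 0.30, adjusted p = 0.016). The remaining tested coat genes gave log2 fold changes of 0.11 for BBS2, -0.07 for BBS7 and -0.05 for BBS9, all with overlapping groups. ARL6, the small GTPase that recruits the coat to membranes, was at 0.12 (adjusted p = 0.22), and BBS10, a chaperonin-like factor like BBS12, was at 0.03 (adjusted p = 0.79).

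BBS1, the subunit that binds ARL6, was under the minimum for testing, with a mean of 0.298 FPKM over the 6 libraries. Its values were 0.32, 0.37 and 0.31 FPKM in control and 0.22, 0.19 and 0.36 with SAR, from 20 to 56 reads a library. By GENCODE 29 53.9% of its exon bases are shared with AP002748.4 on the same strand and 12.4% lie opposite ZDHHC24. How reads in such shared stretches were counted is not given in the sources used here.

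Of the 14 transition zone genes, 6 were higher, none was lower and 8 did not pass, with a median log2 fold change of 0.20. The 6 were TMEM231, CC2D2A, TCTN1, TMEM216, TMEM67 and TCTN3. TMEM231 (ENSG00000205084), a transmembrane protein of the MKS module, was 1.14, 1.24 and 1.09 FPKM in control and 2.02, 2.11 and 2.29 with SAR. The lowest SAR library was well above the highest control, and the log2 fold change of 0.84 (SE 0.10, adjusted p = 0.0023) had the smallest adjusted p of all members. By GENCODE 29 9.7% of its exon bases are shared with genes on its strand.

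CC2D2A had control values of 0.958, 0.786 and 0.810 FPKM and SAR values of 1.29, 1.32 and 1.35, a log2 fold change of 0.58 (adjusted p = 0.017). The call of CC2D2A was lost without control replicate 2 or 3, or without SAR replicate 2. TCTN1, a tectonic, was 1.36, 1.42 and 1.48 FPKM in control and 2.09, 1.95 and 2.09 with SAR (log2 fold change 0.50, SE 0.09, adjusted p = 0.0083). TMEM216 was the transition zone gene with the highest level, 8.80 ± 0.24 FPKM in control and 11.6 ± 0.38 with SAR (log2 fold change 0.39, adjusted p = 0.0035). TMEM67, or meckelin, with 1.90 ± 0.06 and 2.37 ± 0.07 FPKM, and TCTN3, with 6.59 ± 0.40 and 7.81 ± 0.11 FPKM, had log2 fold changes of 0.31 and 0.24. These last 2 calls, like that of ARL3, were among those lost under median-ratio rescaling.

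The other 8 transition zone genes spanned -0.22 to 0.27 on the log2 scale. CEP290, the large tether of the gate, was 1.73 ± 0.09 FPKM in control and 1.49 ± 0.24 with SAR, with overlapping groups (log2 fold change -0.22, adjusted p = 0.25). RPGRIP1L and NPHP4, scaffold proteins of the gate, gave -0.10 and 0.02 with overlapping groups. MKS1 (0.15) and B9D1 (0.14), B9-domain proteins of the MKS module, had all SAR libraries above control without passing. B9D2, the remaining B9 gene, read 1.23, 1.41 and 0.609 FPKM in control, and control replicate 3 set its value: the log2 fold change was 0.27 (SE 0.29) over all libraries and -0.06 without that one. TCTN2, at 0.05, and AHI1, at 0.11, overlapped between groups.

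ARL3 and INPP5E act on the ciliary membrane: ARL3 releases lipid-anchored cargo inside the cilium, and INPP5E is such a cargo, a phosphatase that keeps the membrane's phosphoinositides in their ciliary form. ARL3 was 12.5, 13.7 and 14.2 FPKM in control and 15.4, 16.1 and 17.0 with SAR (log2 fold change 0.26, SE 0.07, adjusted p = 0.028). INPP5E did not pass (log2 fold change 0.09, adjusted p = 0.45), and its groups overlapped.

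PKD1L1 (ENSG00000158683), a polycystin-1-like protein that partners with PKD2 in the node cilia that sense left-right flow, had the largest fold change of the members. Its FPKM was 0.471, 0.0239 and 0.0206 in control, from 106, 6 and 4 reads, and 1.43, 1.41 and 2.21 with SAR, from 245, 245 and 417 reads. All SAR libraries were above all controls, and the control libraries differed among themselves: replicate 1 stood far above the others and had most of the control reads. The log2 fold change was 3.10 (SE 0.62, adjusted p = 0.011) and was 3.84 without control replicate 1 (adjusted p = 0.0020). The lowest SAR library was 2.99 times the level of control replicate 1, and the SAR mean was 75.5 times the mean of the other control libraries.

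How large this difference is thus depends on control replicate 1, the library with the most genes above 0, and whether the 2 facts are related was not tested. Over the other settings the log2 fold change of PKD1L1 ran from 1.204 with a pseudocount of 1 to 4.64 in a count model of the recovered reads. PKD1L1 met the minimum level only through its SAR libraries, since its control mean was 0.172 FPKM, so its presence among the tested members rests on its difference. The other 52 tested members had a mean of at least 0.5 FPKM in each group.

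PKD2, the cation channel subunit itself, was 6.44, 5.405 and 5.48 FPKM in control and 6.91, 7.10 and 6.20 with SAR, and the groups overlapped (log2 fold change 0.22, adjusted p = 0.10). Without control replicate 1 it was 0.30 and passed (adjusted p = 0.043). PKD1, the receptor-like partner of PKD2 in the kidney, was 1.46 ± 0.08 FPKM in control and 1.34 ± 0.28 with SAR (log2 fold change -0.13, adjusted p = 0.56), and its SAR libraries straddled the controls. PKD1 has near-identical copies nearby, PKD1P1 to PKD1P6, between which its reads could be split, so its level is uncertain. Of these copies PKD1P6 was tested, at -0.40 without a call (adjusted p = 0.13), and the others were under the minimum. The polycystin relatives PKD1L2, PKD1L3, PKD2L1, PKD2L2 and PKHD1 were under it too.

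**Figure D4:**
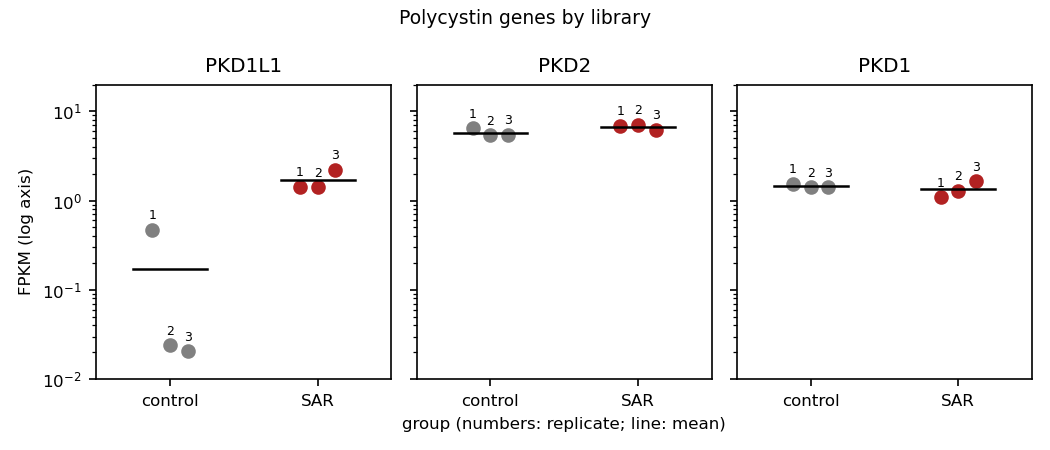
FPKM of PKD1L1, PKD2 and PKD1 in the 6 libraries, on a log axis, with replicate numbers beside the points and a line at each group mean. PKD1L1 in control replicate 1 reads 0.471 FPKM against 0.0239 and 0.0206 in the other controls, and all SAR libraries are above 1.4, while PKD2 and PKD1 differ little between groups.

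Levels per length, in FPKM, can be ordered among the members only roughly, because the feature lengths behind the deposited values were within 5% of GENCODE 29 exon lengths for 35 of 54 members and over 1.5 times those lengths for 11. With that limit, IFT52 at 24.6 and ARL3 at 14.8 FPKM (means over all 6 libraries) were the most abundant, and BBS1 at 0.298, PKD1L1 at 0.928 and BBS5 were the least. Without rescaling, the level summed over all 54 members was 232 to 237 FPKM in the control libraries and 266 to 280 with SAR. Over all genes tested it was 268519 to 279364 in control and 273733 to 290484 with SAR, ranges that overlap. For the motors alone it was 30.3 to 34.0 in control and 31.1 to 33.7 with SAR, ranges that overlap. IFT-A members summed to 23.4 to 24.2 in control and 30.6 to 31.9 with SAR.

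Further genes of the same machinery were read from the same fit. Of 14 tested genes of the transport and BBSome machinery outside the 54, 6 were higher and 1 lower, with a median log2 fold change of 0.27. These were 42.9% and 7.14%, beside 23.7% and 9.55% of all genes tested. TTC30B, an IFT-B subunit also known as IFT70B, was 0.96, 0.83 and 0.85 FPKM in control and 2.73, 2.14 and 1.56 with SAR (log2 fold change 1.16, SE 0.20, adjusted p = 0.0066). Its near-identical neighbour TTC30A was 1.59 ± 0.11 and 2.49 ± 0.49 FPKM (log2 fold change 0.60, adjusted p = 0.022), and reads could be split between the pair. DYNC2I2, a dynein-2 intermediate chain, had 15.4 ± 0.89 FPKM in control and 22.1 ± 0.67 with SAR (log2 fold change 0.52, adjusted p = 0.0018). MKKS, or BBS6, the remaining chaperonin-like factor beside BBS10 and BBS12, had a log2 fold change of 0.63 (adjusted p = 0.018). TULP3, an adaptor that links receptors to IFT-A, was lower, at -0.22 (adjusted p = 0.024).

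Other transition zone and inversin genes gave 5 higher (35.7%) and none lower of 14 tested, with a median of 0.26. None of the 5 kept its call after median-ratio rescaling. IQCB1, or NPHP5, was the one with the smallest adjusted p (log2 fold change 0.22, adjusted p = 0.015), followed by RPGR (0.41, adjusted p = 0.023). Of 13 ciliary GTPase and lipid-cargo genes, 3 were higher and 1 lower, with a median of 0.06. These shares, 23.1% and 7.69%, were near the 23.7% and 9.55% of all genes tested. Under median-ratio rescaling 2 were higher and 2 lower. SMO, a protein of Hedgehog signalling that enters the cilium, rose from 6.38 ± 0.33 to 8.77 ± 0.31 FPKM (log2 fold change 0.45, adjusted p = 0.0035). RP2, which switches ARL3 off, fell from 10.9 ± 0.20 to 8.22 ± 0.51 FPKM (log2 fold change -0.41, adjusted p = 0.0046), while ARL3 itself rose.

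Of 17 genes of the basal body and of the start of cilium growth, 2 were higher (CEP131 at 0.39 and OFD1 at 0.34). None was lower and 15 did not pass, with a median of -0.02. Higher genes made up 11.8% of this list, beside 23.7% of all genes tested. Under median-ratio rescaling 1 was higher and 3 were lower, where 13.8% and 15.5% of all genes tested were so called. Among 8 genes of cilium disassembly, PIFO was higher (log2 fold change 1.41, adjusted p = 0.00049), and NEDD9 (-0.93, adjusted p = 0.0057) and AURKA (-0.25, adjusted p = 0.024) were lower. With rescaling by the median ratio, 1 of these 8 was higher and 4 were lower. AURKA is the kinase that starts disassembly, and NEDD9 and PIFO are known activators of it. Because AURKA also peaks in dividing cells, proliferation genes are given beside it: CDK1, CCNA2 and CCNB1 fell by 0.38, 0.43 and 0.17 on the log2 scale, and 5 of 8 such genes did not pass. The part of cell division in these values was not tested.

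**Figure D5:**
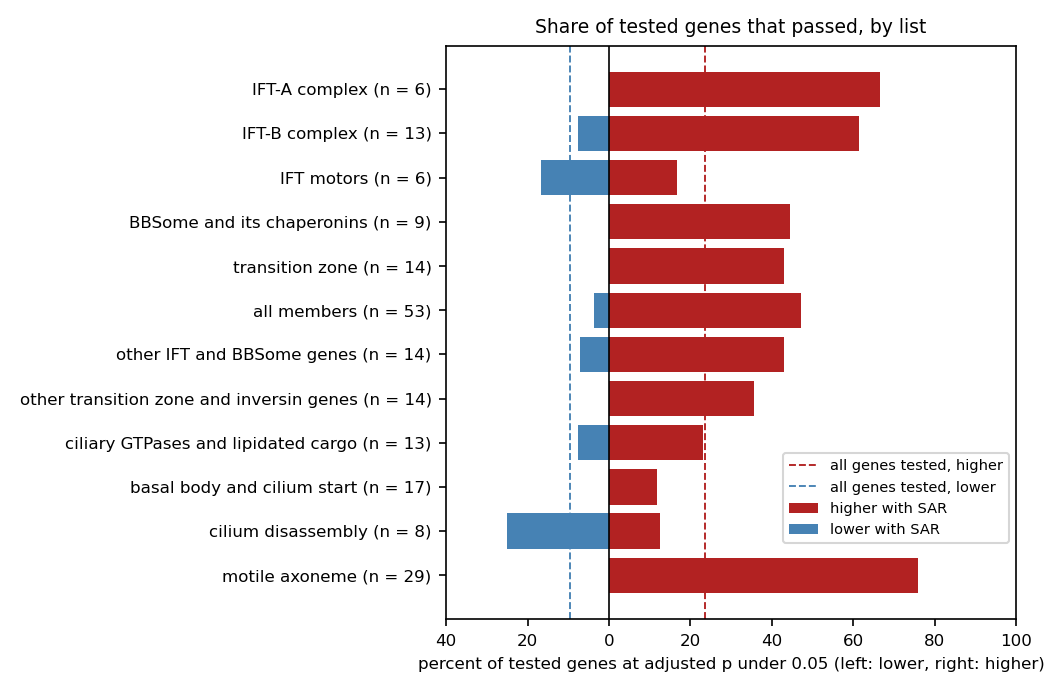
Percent of the tested genes of each list at an adjusted p under 0.05, higher with SAR to the right (red) and lower to the left (blue), with dashed lines at 23.7% and 9.55% for all genes tested. IFT-A and IFT-B had 66.7% and 61.5% of their tested genes higher, the motors had 16.7% on each side, and basal body genes had 11.8% higher. Of the 29 motile axoneme genes, 10 were tested only through their SAR libraries.

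Motile axoneme genes, which make the arms and spokes that let a cilium beat and are not part of most primary cilia, were compared with the members. Of 39 listed, 29 were tested, 22 were higher (75.9%) and none was lower, and their median log2 fold change was 0.96. Rescaled by the median ratio, 21 were higher and 1 was lower. The list was known to be higher in these libraries when it was chosen, so its count is a description. Of the 29 tested, 10 had a control mean under 0.5 FPKM and met the minimum only through their SAR libraries, 9 of them called higher, so the count and the median are partly set by the difference itself. The 14 with a log2 fold change above 1 were SPAG16, CAPSL, TPPP3, DRC1, SPAG6, TEKT2, RSPH1, ODAD1, ENKUR, ODAD4, RSPH4A, ZMYND10, CFAP300 and DNAAF1, from 1.01 for SPAG16 to 3.13 for ENKUR. DRC1, of the nexin-dynein regulatory complex, went from 0.48 ± 0.20 to 4.08 ± 0.83 FPKM, and SPAG16, of the central pair, from 3.38 ± 0.06 to 6.91 ± 0.49 FPKM. DNAH5, an outer dynein arm heavy chain, stayed under the minimum, at 0.292, 0.0775 and 0.107 FPKM in control and 0.39, 0.41 and 0.67 with SAR.

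Of 8 tested genes on a list of ciliary gene regulators and RFX family members, 4 rose (50.0%) and 4 did not pass. FOXJ1 and NOTO, of the 4, met the minimum only through their SAR libraries. FOXJ1, the forkhead factor of motile and nodal cilia, was 0.60, 0.38 and 0.41 FPKM in control and between 8.28 and 14.6 with SAR (log2 fold change 4.40, SE 0.24, adjusted p = 0.00016). RFX2 rose from 0.54 ± 0.05 to 1.12 ± 0.19 FPKM (log2 fold change 0.93, adjusted p = 0.011), and RFX5 had a log2 fold change of 0.30 (adjusted p = 0.024). The RFX5 call was lost under median-ratio rescaling (0.18, adjusted p = 0.13). RFX3, the RFX factor with the best known part in primary and nodal cilia, was 3.36 ± 0.20 FPKM in control and 3.48 ± 0.19 with SAR and did not pass (log2 fold change 0.05, adjusted p = 0.67). RFX1 and RFX7 did not pass either, and RFX4 was under the minimum. The multiciliated cell regulators GMNC, MCIDAS and TP73 were under the minimum as well, with means of at most 0.365 FPKM in either group, and MYB did not pass. Means of GMNC were 0.0762 FPKM in control and 0.282 with SAR, from 1 to 25 reads a library. MCIDAS was 0.384, 0.0383 and 0.0495 FPKM in control (18, 2 and 2 reads) and 0.196, 0.138 and 0.127 with SAR (7, 5 and 5 reads). Its near-equal means of 0.157 and 0.154 FPKM thus rest on control replicate 1.

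Some markers of the node and notochord, tissues that carry motile or sensory nodal cilia, also passed the test. FOXJ1, NOTO, CHRD and FOXA2 were higher, and CFAP53 did not pass. Like FOXJ1 and NOTO, CHRD had a control mean under 0.5 FPKM. NOTO, a notochord factor, was 0.113, 0.0842 and 0 FPKM in control and 2.71, 1.77 and 1.36 with SAR, and CHRD (chordin) was 0.41, 0.22 and 0.19 in control and 2.32, 1.86 and 2.12 with SAR. SHH was under the minimum at 0.166, 0.0391 and 0.0810 FPKM in control and 0.84, 0.74 and 0.82 with SAR, and NOG was near 0. What part such cells had in the members' values was not tested.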

How the data were processed

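The authors deposited a single table of FPKM for 40396 Ensembl genes in 3 control and 3 SAR libraries. The submitters' processing notes name HISAT2, featureCounts (Subread), DESeq2 and GRCh38.p13, and the annotation release and strand setting are not given in the sources used here. Poly(A)-selected paired-end libraries were made. Because 1 read adds a fixed FPKM per gene, whole reads were recovered for 99.2% of genes (tolerance 0.02 of a read), which gave depths of 16681280 to 24419937 reads per library. Members had between 4 and 1721 reads per library, so counting error is largest for the lowest genes.

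limma 3.58.1 (R 4.3.3, intensity trend, two-sided) was fitted to log2(FPKM + 0.1) with no covariate, over the 16371 genes whose mean reached 0.5 FPKM, and p-values were Benjamini-Hochberg adjusted over all of them. The function was tested on simulated counts with changes larger than those of all members but PKD1L1, so that test does not cover differences this small. Alternatives were other pseudocounts (1 and 0.01), no minimum or a minimum of 1 FPKM, median-ratio and quantile scaling, no intensity trend, a replicate block, limma-voom on recovered reads, and each library left out. Positions and overlaps came from GENCODE 29 (GRCh38), and promoter windows from RefSeq (GRCh38.p14). Members and all lists were chosen with earlier results of these data known. All 54 members could be named, and from other lists the genes past the test with a log2 fold change beyond 1, or the 2 with the smallest adjusted p, plus FOXJ1, RFX2, RFX3 and the PKD1 copies. Further genes named (such as DNAH5, GMNC, SHH, PKD1L2 and MKKS) were chosen after their values were seen. The values of 1 gene of the node and notochord list are not reported here.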

Additional observations from a re-analysis of the deposited data

How the results depend on the processing

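Of the 27 members called, 14 kept their call in each of up to 15 alternatives (IFT46, IFT57, IFT74, IFT80, CLUAP1, IFT43, IFT122, IFT140, BBS4, BBS12, TMEM216, TMEM231, TCTN1 and PKD1L1, the last not testable at a minimum of 1 FPKM), and no call changed direction. Members called higher numbered 16 under median-ratio and 16 under quantile scaling, and 14 to 21 without 1 library, the lowest without control replicate 3. Members called lower numbered 0 with no minimum, 0 without the intensity trend and 0 to 2 without 1 library. Among all genes, 1152 were lower with no minimum and 1333 without the intensity trend, beside 1563 in the main fit. Calls were lost for 6, 10 and 13 members without control replicates 1, 2 and 3, and for 7, 8 and 4 without SAR replicates 1, 2 and 3. Beside those named in the report, IFT22 lost its call whichever of the 6 libraries was left out, DYNC2LI1 whichever control was, TTC8 without control replicate 2 or 3, and IFT52 and WDR19 without control replicate 3. TMEM67 kept its call only without SAR replicate 3, TCTN3 only without control replicate 2, and ARL3 only without SAR replicate 1. With a fold above 1 also required, 0 members were higher at a minimum of 1 FPKM and 1 to 2 without 1 library (BBS12 was added without SAR replicate 3). The members' median was 0.12 under median-ratio and 0.13 under quantile scaling, and that of all genes was 0.093 with a pseudocount of 1, 0.043 with no minimum, 0.0011 under median-ratio and 0.011 under quantile scaling, and 0.11 to 0.13 without 1 library.

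Over all genes, 559 were higher and 259 lower with a fold above 1. These were 169 and 141 with a pseudocount of 1, 403 and 362 under median-ratio scaling, 340 and 409 under quantile scaling, and 369 higher at a minimum of 1 FPKM. Without a minimum fold, 3885 were higher and 1563 lower, 2259 and 2538 under median-ratio scaling, 2429 higher under quantile scaling, and 2129 to 3751 and 833 to 1824 without 1 library.

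Same-numbered libraries did not deviate together (correlations 0.073, 0.0029 and 0.025), so the numbers were not taken as pairs. With a replicate block, 20 members were higher and 0 lower, and the median was unchanged. This block left 3400 of all genes higher and 1448 lower.

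The sign turned only in members without a call. Under median-ratio scaling the values were TRAF3IP1 -0.035, KIF3A -0.034, BBS2 -0.0045, BBS10 -0.092, ARL6 -0.0036, NPHP4 -0.097, TCTN2 -0.066, AHI1 -0.0041 and INPP5E -0.029. Under quantile scaling they were IFT172 -0.012, TRAF3IP1 -0.0069, KIF3A -0.0032, BBS2 -0.079, BBS10 -0.062, ARL6 -0.011, NPHP4 -0.18, MKS1 -0.032, TCTN2 -0.071, AHI1 -0.11 and INPP5E -0.033. Without 1 library the ranges were BBS10 -0.024 to 0.075 (negative without control replicate 2 or SAR replicate 3), NPHP4 -0.079 to 0.11 (negative without control replicate 2 or 3 or SAR replicate 3), TCTN2 -0.040 to 0.14 and B9D2 -0.063 to 0.48 (negative without control replicate 3), and PKD1 -0.28 to 0.0011 (positive without SAR replicate 1). The causes were not tested.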
